A study of Mus musculus with 16 samples.

Results

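The genes described are those encoding mitochondrial ribosomal proteins, taken as every row of the per-library expression table whose symbol begins with Mrpl or Mrps followed by a number and that carries no other symbol. This gave 77 of 23946 genes, 48 named for the large subunit (Mrpl) and 29 for the small subunit (Mrps). Expression was measured by RNA sequencing of polyA RNA in 16 libraries from adult male FVB mice (an inbred strain) aged 10 to 13 weeks, with 4 libraries in each of 4 groups. The groups were the right ventricular (RV) and the left ventricular (LV) free wall of sham-operated mice and of mice in the group labelled PS, read here as pulmonary artery banding, the only operation besides sham that the protocol names. Banding narrows the vessel into which the right ventricle pumps and was used to bring about RV failure, while the left ventricle is not directly loaded. No transgene or drug is given for any group. The labels do not say how long the band was in place, nor whether RV and LV libraries of the same number come from the same mouse.

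The mitochondrial ribosome, or mitoribosome, translates the few messenger RNAs encoded by mitochondrial DNA, all of which specify subunits of the respiratory chain and ATP synthase. Its ribosomal RNAs are made inside the organelle, whereas all of its proteins are encoded in the nucleus, translated by cytosolic ribosomes and imported. The large subunit holds the peptidyl transferase centre and the exit tunnel, and the small subunit holds the decoding centre. Some of the proteins descend from bacterial ribosomal proteins and others are found only in mitochondria. Heart muscle is rich in mitochondria, and inherited defects in several of these genes cause cardiomyopathy in humans. Symbols do not always give the position of a protein: in structures of the mammalian mitoribosome, the products of Mrps30 and Mrps18a sit in the large subunit, and the product of Mrps36 has been assigned to the oxoglutarate dehydrogenase complex. The messenger RNAs encoded by mitochondrial DNA were not analysed here.

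Values are fragments per kilobase of transcript, relative to the mapped fragments of the library (FPKM), so that levels of different genes can be compared per length. Differences are given on the log2(FPKM + 1) scale, which understates the change of genes at low level. A gene was tested when it reached 1 FPKM in at least 4 of the 16 libraries, and it is said to have risen or fallen when limma, a linear model fitted over all 12100 tested genes and all 16 libraries, gave a Benjamini-Hochberg adjusted p below 0.05 with the same sign on 2 scales, as deposited and rescaled, that is, with each library divided by a scale factor. Printed differences and p-values are as deposited unless stated. The p-values measure the spread between these libraries, which may be technical. Of the 77 genes, 76 passed the filter, 47 Mrpl and 29 Mrps, and Mrpl23 did not.

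The libraries differed in depth and scale. Fragments estimated from the lowest FPKM steps, with an assumed fragment length of 200 nt, numbered 4.12e+05 to 1.32e+06 in the RV sham libraries, 2.36e+06 to 5.78e+06 in RV banded, 1.95e+06 to 4.47e+06 in LV sham and 3.83e+06 to 8.97e+06 in LV banded. The median mitoribosomal gene rested on 15.3 to 59.1 fragments in RV sham and on 79.7 to 215 in RV banded libraries, so the RV sham values are the least precise. The gene of the precursor of cytosolic ribosomal RNA, Rn45s, had a listed value of 0 in 5 banded libraries (RV PS_9561 and PS_9564; LV PS_9552, PS_9553 and PS_9561), whose scale factors were 1.22 to 1.28. All 10 cardiomyocyte markers were above 0 in every group, with summed levels of 40390 to 44440 FPKM in RV sham, 29530 to 39360 in RV banded, 27240 to 42180 in LV sham and 53400 to 68750 in LV banded. Of 7 markers of the pancreas some were also present, chiefly the hormone genes Ins2 and Ins1, with RV sham means of 1043 and 268 FPKM. The summed levels were 634 to 2139 FPKM in RV sham, 63.5 to 154 in RV banded, 86.6 to 2091 in LV sham and 24.2 to 58.4 in LV banded. Cpa1 and Cela2a averaged only 0.03 and 0.04 FPKM over the 16 libraries, and Cpa1 was at 0 in all libraries of both RV groups.

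The 77 genes spanned a wide range of levels. Averaged over the 16 libraries, Mrpl33 was highest at 242 FPKM, followed by Mrps21 at 183 and Mrpl42 at 180 FPKM, and then by Mrpl12 at 143, Mrpl14 at 135 and Mrps16 at 119 FPKM. Mrps23 (94.5 FPKM) and Mrps18a (77.9 FPKM) completed the 4 highest of the small subunit by symbol. At the other end stood Mrpl1 at 3.07 and Mrpl19 at 4.21 FPKM in the large subunit, and Mrps33 at 5.44, Mrps25 at 7.08 and Mrps10 at 7.31 FPKM in the small subunit. The mean of the highest tested gene was 78.8 times that of the lowest. The 10 highest genes held 33.5 to 43.3% of the summed FPKM of all 77 in a library.

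Mrpl23 was the exception at the bottom of the range. It was listed at 0 in 8 of 16 libraries and averaged 0.575 FPKM, with its highest value, 3.72 FPKM, in RV sham library 3. It has a near-identical copy, Mrpl23-ps1, and reads that fit both can be lost or split between them. In the same way Mrpl42, Mrps10 and Mrps21 have a near-identical copy, as do Mrpl22 and Mrpl27, so the levels of these 6 genes are uncertain. Exons of 32 of the 77 genes overlap another annotated gene, and whether the libraries kept the strand is not given in the sources used here. Among the genes whose values are given in the text, a gene on the other strand overlaps Mrpl3 (Gm47106), Mrpl13 (Mtbp), Mrpl14 (Tmem63b), Mrpl36 (Ndufs6), Mrpl43 (Twnk), Mrps11 (Mrpl46), Mrps25 (Nr2c2), Mrpl44 (Wdfy1), Mrpl19 (Gcfc2), Mrpl12 (Gm16755), Mrps18b (Gm16279), Mrps26 (4930473A02Rik) and Mrps30 (B430218F22Rik). Mrps34 overlaps Nme3 on its own strand and Mapk8ip3 on the other. Genes on the same strand also overlap Mrpl3 (Gm38077), Mrpl33 (Gm43809), Mrpl51 (Mir3098) and Mrps18c (Gm43511).

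**Figure D1:**
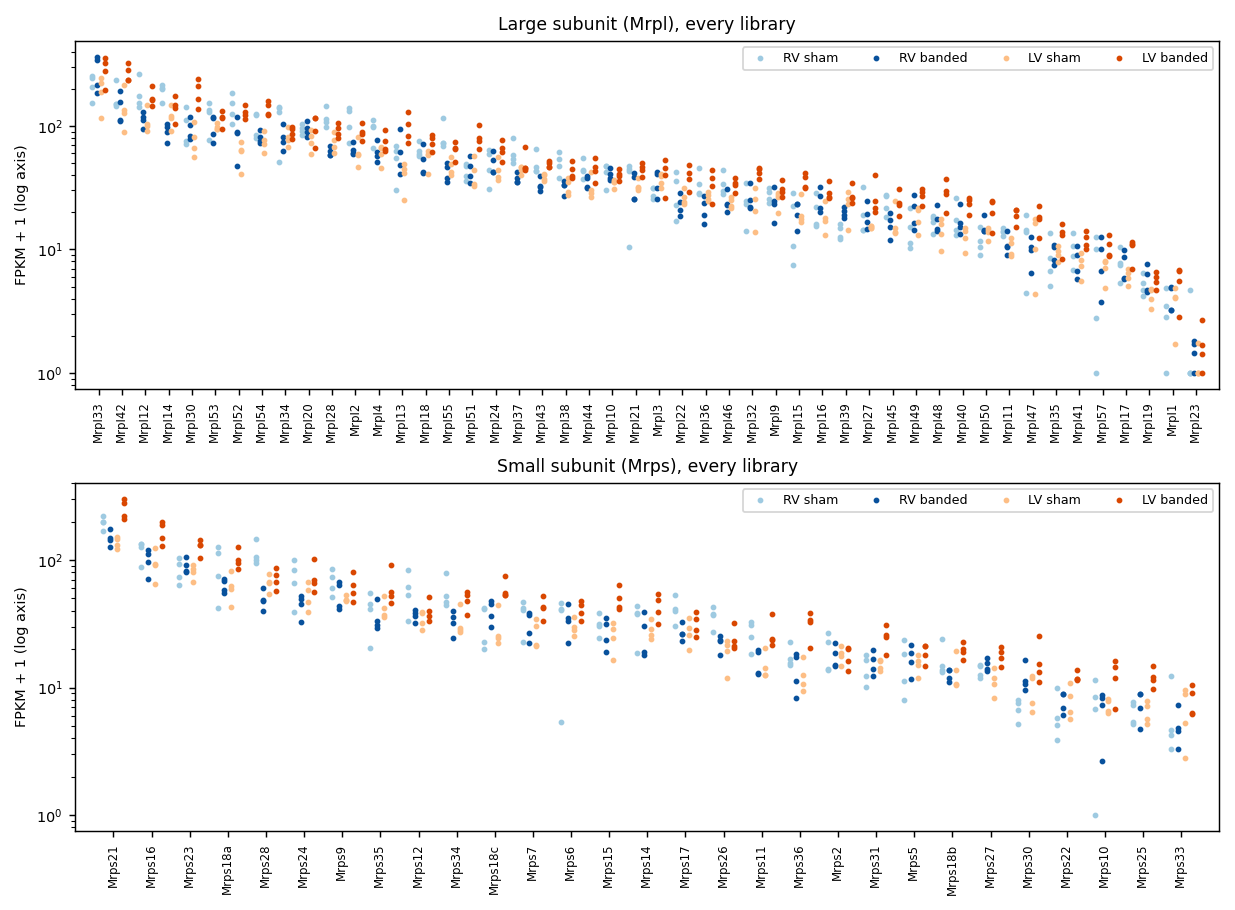
FPKM + 1 of the 77 genes on a log axis, with 1 point per library, coloured by group; genes run from the highest to the lowest mean of 16 libraries, Mrpl above and Mrps below. The large-subunit genes run from Mrpl33 (242 FPKM) to Mrpl23 (0.575 FPKM) and the small-subunit genes from Mrps21 (183 FPKM) to Mrps33 (5.44 FPKM).

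In the banded right ventricle, 15 of the 76 tested mitoribosomal genes fell and none rose, against 4.93% of all tested genes that fell and 10.5% that rose. The 15 were 11 of 47 large-subunit and 4 of 29 small-subunit genes. The median difference of the 76 was -0.23, beside 0.26 for all tested genes, and 63 of the 76 lay below the median of all genes. Scaling moved the median of all genes. It was 0.26 as deposited, 0.11 rescaled, 0.64 when every library was brought to the same sum (TPM scaling) and -0.01 after quantile normalization. The change relative to that median was -0.49, -0.52, -0.40 and -0.30 on these 4 scales. Values as deposited, rescaled and with TPM scaling differ only by a factor per library, which moves all genes nearly alike. The nearness of these relative changes is therefore largely built in and is no separate support. The absolute direction was not the same on all 4: the median of the 76 genes was -0.41 rescaled and -0.31 after quantile normalization but 0.24 with TPM scaling, where 10 genes were called higher and none lower, against 46.9% and 1.17% of all genes.

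Mrps28, a small-subunit protein with a bacterial counterpart, showed the largest fall. Its RV sham libraries held 105, 99.8, 145 and 93.1 FPKM, and its RV banded libraries 46.7, 59.3, 47.8 and 39.1 FPKM. The groups did not overlap. The mean went from 111 ± 23.2 to 48.2 ± 8.34 FPKM (SD, n = 4), a log2 difference of -1.18 ± 0.18 (SE, limma adjusted p = 0.000585).

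Mrpl14, a conserved protein at the face of the large subunit that meets the small one, came next. Its RV sham libraries held 201, 152, 200 and 213 FPKM and its RV banded libraries 103, 97.5, 88.6 and 72.2 FPKM. Every banded library lay below every sham library, with a log2 difference of -1.08 ± 0.19 (SE, limma adjusted p = 0.00146). Mrpl28, another large-subunit protein kept from bacteria, fell from 106, 113, 145 and 96.7 FPKM in sham to 61.1, 56.9, 68.1 and 57.5 FPKM in banded libraries. These groups too stood apart, and the difference was -0.90 ± 0.16 (limma adjusted p = 0.00182).

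Mrpl55, found only in mitochondria, held 71.9, 114, 72.1 and 67.5 FPKM in RV sham and 45.7, 33.9, 49.3 and 37.1 FPKM in RV banded libraries. Sham library 2 was the high one of its group, and the groups did not overlap. The log2 difference was -0.94 ± 0.19 (limma adjusted p = 0.00371). Mrpl37, also specific to mitochondria, went from 59.4 ± 13.4 to 36.5 ± 3.59 FPKM (SD, n = 4) with no overlap (log2 difference -0.67, limma adjusted p = 0.0141).

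Another 7 large-subunit genes fell. Mrpl12 encodes the stalk protein that recruits translation factors. Its sham libraries held 151, 141, 172 and 260 FPKM and its banded libraries 116, 111, 128 and 93.9 FPKM, with sham library 4 the highest and no overlap (log2 difference -0.65, limma adjusted p = 0.0327). Mrpl2, a protein of the peptidyl transferase region, overlapped between the groups, with sham library 1 at 71.9 FPKM below banded library PS_9561 at 72.6 FPKM, and sham libraries 2 and 4 highest at 131 and 138 FPKM (difference -0.74, limma adjusted p = 0.0204). The mitochondria-specific Mrpl38 (-0.63, limma adjusted p = 0.0207) and Mrpl43 (-0.54, limma adjusted p = 0.0196) and the conserved Mrpl36 (-0.68, limma adjusted p = 0.0400) did not overlap between groups. Mrpl4, a conserved protein near the exit tunnel (-0.60, limma adjusted p = 0.0427), and the mitochondria-specific Mrpl52 (-0.77, limma adjusted p = 0.0446) did overlap.

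In the small subunit, the mitochondria-specific Mrps34 and Mrps26 and the conserved Mrps11 joined Mrps28. Mrps34 held 46.2, 51.1, 77.6 and 43.5 FPKM in RV sham and 38.8, 34.6, 31.2 and 23.3 FPKM in RV banded libraries, with no overlap (difference -0.74, limma adjusted p = 0.0299). Mrps26 held 26.1, 36.6, 35.9 and 42.1 FPKM in sham and 24.2, 17.1, 22.6 and 22.1 FPKM in banded libraries, with no overlap but only a small gap between sham library 1 and banded library PS_9552 (difference -0.67, limma adjusted p = 0.0427). Mrps11, a protein of the platform of the small subunit, overlapped, since sham library 2 at 17.5 FPKM lay below banded libraries PS_9552 and PS_9561 at 17.9 and 18.7 FPKM (difference -0.73, limma adjusted p = 0.0453).

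**Figure D2:**
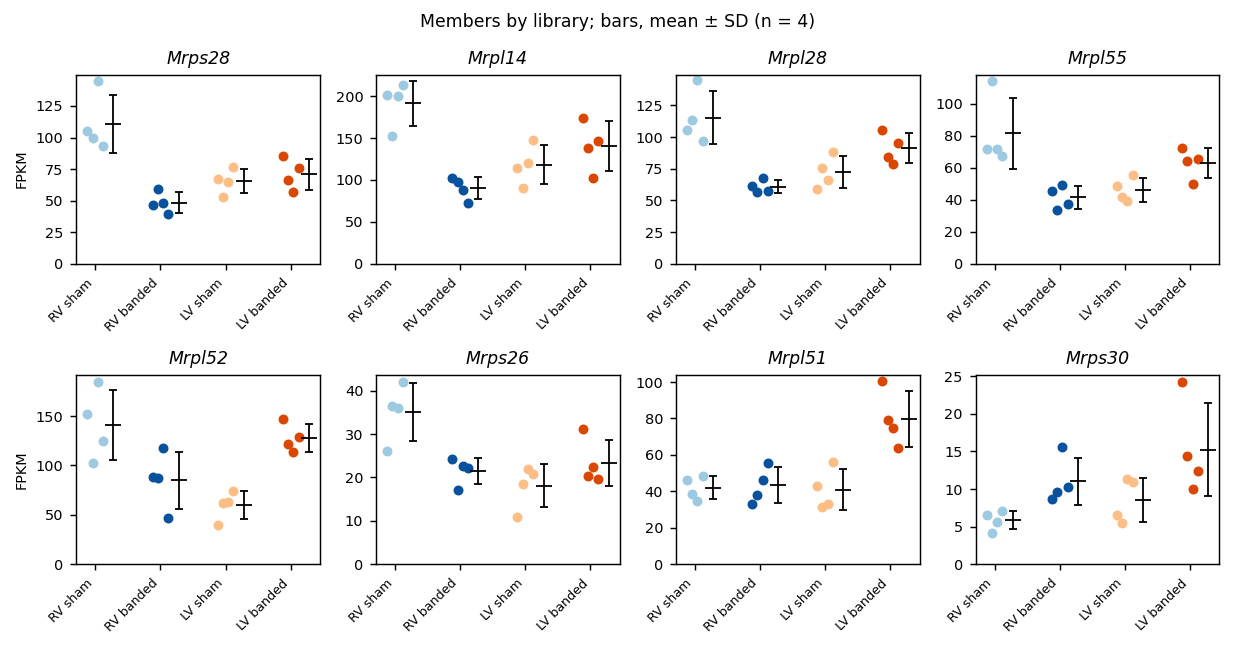
FPKM of 8 mitoribosomal genes by library, 4 libraries per group, on axes that start at 0; bars give the mean ± SD (n = 4). Mrps28, Mrpl14, Mrpl28, Mrpl55 and Mrps26 are lower in every RV banded than in every RV sham library, Mrpl51 is higher in every LV banded than in every LV sham library, and Mrps30 is higher in every RV banded than in every RV sham library.

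Firmness differed among the 15. Mrps28, Mrpl14, Mrpl28, Mrpl55 and Mrpl37 kept their call whichever of the 8 RV libraries was left out, while the other 10 lost it in 1 to 6 of the 8 omissions. In a fit on the 8 RV libraries alone, only Mrps28, Mrpl14, Mrpl28 and Mrpl55 were called, and Mrpl37 was not. The count of falls was 9 without sham library 3 or sham library 4, 8 without banded library PS_9553 and 9 without banded library PS_9564. Without the libraries listed at 0 for Rn45s, which left 2 banded RV libraries, Mrps28, Mrpl14 and Mrpl36 were called. With TPM scaling all 15 genes kept a negative difference and none passed the threshold. When rescaled values were also corrected for length and GC content of the transcripts, 23 genes were lower (beside 9.1% of all genes), among them 11 of the 15, and Mrpl2, Mrpl38, Mrps34 and Mrpl4 did not pass.

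No mitoribosomal gene rose in the banded right ventricle by the criterion used. The 4 with the largest positive differences were Mrps30 (0.80, limma adjusted p = 0.0538), Mrpl57 (0.80, adjusted p = 0.348), Mrpl1 (0.60, adjusted p = 0.341) and Mrpl39 (0.52, adjusted p = 0.0795). Mrps30 held 6.51, 4.20, 5.66 and 7.01 FPKM in sham and 8.63, 9.64, 15.6 and 10.3 FPKM in banded RV libraries. Mrpl39, which is specific to mitochondria, held 13.8, 11.1, 15.2 and 11.6 FPKM in sham and 18.2, 16.9, 19.4 and 21.0 FPKM in banded RV libraries. These were the 2 genes whose RV banded libraries all lay above the RV sham libraries, against 12.6% of all tested genes, while 11 lay wholly below, against 5.07%. Mrpl1 and Mrpl57 were listed at 0 in RV sham library 2, the least deeply sequenced, so their differences rest on few fragments.

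Among genes mutated in human cardiomyopathy, 4 were looked at, chosen by hand, and none passed in the right ventricle. Mrpl3 differed by 0.26 (limma adjusted p = 0.398), Mrpl44 by -0.34 (adjusted p = 0.186), Mrps22 by 0.40 (adjusted p = 0.290) and Mrps14 by -0.39 (adjusted p = 0.341). Mrps12, a protein of the decoding centre, held 60.6, 32.2, 52.2 and 82.6 FPKM in sham and 37.3, 31.1, 39.6 and 35.5 FPKM in banded libraries, a difference of -0.58 that passed the threshold rescaled (limma adjusted p = 0.0233) but not as deposited (0.0828). Of the 5 genes with the highest mean level, Mrpl12 and Mrpl14 fell, as given above, while Mrpl33 differed by 0.33, Mrpl42 by -0.27 and Mrps21 by -0.41, none of these past the threshold (limma adjusted p = 0.401, 0.446 and 0.0667).

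Of the 3 genes related to bacterial S18, Mrps18c differed by 0.40 in the right ventricle, and Mrps18b by -0.35 and Mrps18a by -0.39, with none past the threshold (limma adjusted p = 0.296, 0.277 and 0.334). Mrpl41, at 8.98 ± 2.85 FPKM in RV sham and 7.04 ± 2.26 in RV banded libraries (SD, n = 4), did not pass either (difference -0.31, limma adjusted p = 0.384).

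**Figure D3:**
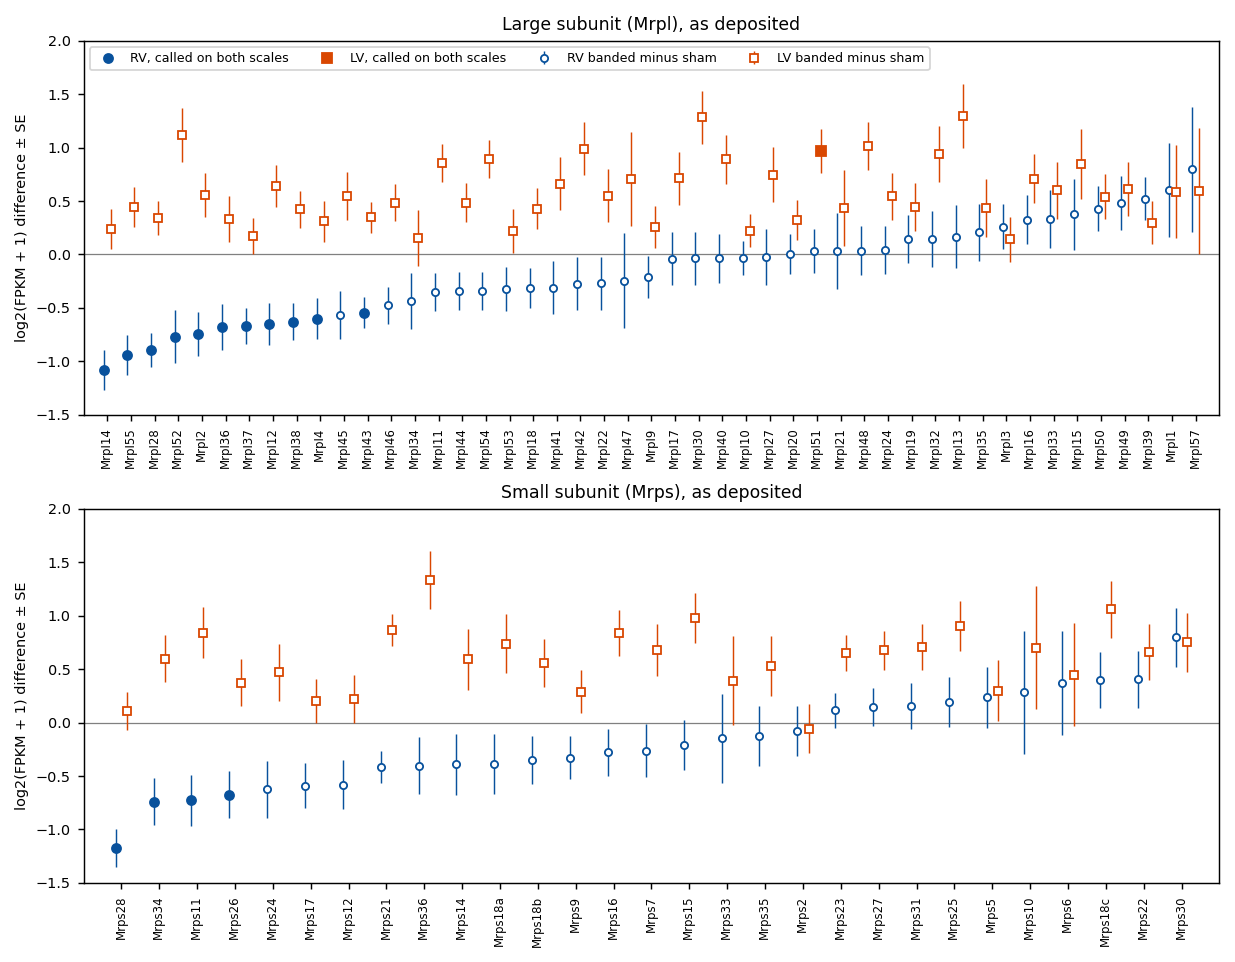
Log2(FPKM + 1) difference between banded and sham libraries, as deposited, for 47 Mrpl genes (above) and 29 Mrps genes (below), with its standard error; blue circles are the right and orange squares the left ventricle, filled where the gene was called on both scales. The filled circles are the 15 genes lower in the right ventricle and the filled square is Mrpl51; with TPM scaling the median of the RV differences is 0.24 in place of -0.23.

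In the left ventricle of the same operation groups, the same genes were mostly at higher values in banded mice, but with little that passed on both scales. Mrpl51 rose and no gene fell, against 2.44% and 0.298% of all tested genes. Mrpl51, a mitochondria-specific protein of the large subunit, held 42.8, 31.5, 32.9 and 56.0 FPKM in LV sham and 100, 79.2, 74.96 and 63.9 FPKM in LV banded libraries. All 4 banded libraries lay above all sham libraries, with a log2 difference of 0.97 ± 0.21 (SE, limma adjusted p = 0.00605 as deposited and 0.0453 rescaled). The call was lost in 7 of the 8 omissions of a single LV library and held only without LV sham library 4.

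As deposited, 22 of the 76 genes were higher in the banded left ventricle, beside 14.3% of all tested genes, and 32 had no overlap between the groups, beside 22.2%. The median difference was 0.57, beside 0.33 for all genes, and 0.18 beside 0.01 rescaled, 0.39 beside 0.17 with TPM scaling and 0.11 beside -0.02 after quantile normalization. Corrected for length and GC content, it was 0.05, and no gene passed as higher, beside 2.14% of all genes. Only Mrps2 had a negative LV difference as deposited (-0.06, limma adjusted p = 0.897; named after its value was seen), and 20 genes did so rescaled.

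The largest LV difference as deposited was that of Mrps36, followed by Mrpl13 (1.29) and Mrpl30 (1.28), both named after their values were seen, and by Mrpl52 and Mrps18c. Mrps36 held 9.58, 8.32, 11.6 and 16.5 FPKM in LV sham and 32.8, 37.8, 31.6 and 19.5 FPKM in LV banded libraries (difference 1.34, limma adjusted p = 0.00465 as deposited, 0.0606 rescaled). Mrpl52 held 40.0, 61.5, 62.8 and 73.7 FPKM in LV sham and 147, 122, 114 and 129 FPKM in LV banded libraries (difference 1.12, limma adjusted p = 0.00799 as deposited, 0.186 rescaled). Mrps18c differed by 1.06 (limma adjusted p = 0.0146 as deposited, 0.168 rescaled). In these 5 genes the banded libraries lay above the sham libraries, and none of the 5 passed after rescaling. The summed cardiomyocyte markers were higher in every LV banded than in every LV sham library as well, and 3 of the 10 rose; the part of such shifts in the LV values was not tested.

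The effect of banding differed between the ventricles for 10 of the 76 genes, all with a lower RV than LV effect, against 3.45% of all tested genes in that direction and 0.529% in the other. The median difference between the effects was -0.81 for the 76 genes, beside -0.07 for all genes, and it was negative on all 4 scales (-0.60 rescaled, -0.15 with TPM scaling, -0.45 after quantile normalization). As deposited, 47 genes had a lower value in the banded than the sham right ventricle together with a higher value in the left, 28 were higher in both and 1 was lower in both. Rescaled, these numbers were 42, 14 and 17, and 3 genes were higher in the right and lower in the left ventricle. The same counts over all tested genes are not given here. Of all 12100 tested genes, 3668 had a negative RV difference and 2215 a negative LV difference as deposited. Rescaled, these were 5036 and 5945. With TPM scaling, 19 of the 76 genes had a negative RV difference and 5 a negative LV difference.

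Mrps21, a short small-subunit protein kept from bacteria, had the smallest p. It held 198, 197, 169 and 219 FPKM in RV sham and 173, 126, 147 and 143 FPKM in RV banded libraries. In the left ventricle it held 147, 121, 131 and 151 FPKM in sham and 302, 279, 209 and 223 FPKM in banded libraries. The RV groups overlapped by a narrow margin and the LV groups did not overlap. The RV effect minus the LV effect was -1.28 ± 0.21 (SE, limma adjusted p = 0.00212).

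Mrpl52 had the largest difference between effects, -1.89 ± 0.36 (SE, limma adjusted p = 0.00394), with RV sham libraries at 152, 103, 185 and 125 FPKM and RV banded libraries at 88.5, 86.8, 117 and 46.3 FPKM beside the LV values given above. In the right ventricle the groups overlapped in 1 pair of libraries, and in the left they stood apart in the opposite direction. Mrpl11, a conserved protein at the base of the stalk, held 14.0, 13.2, 11.8 and 12.8 FPKM in RV sham and 8.01, 9.55, 13.2 and 9.57 FPKM in RV banded libraries. Its LV libraries held 10.3, 8.27, 7.83 and 11.4 FPKM in sham and 19.9, 19.95, 17.8 and 14.1 FPKM in banded mice (difference between effects -1.21, limma adjusted p = 0.00737).

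The other 7 were Mrpl28 (-1.23), Mrpl55 (-1.38), Mrpl54 (-1.23), Mrps11 (-1.57), Mrpl12 (-1.29), Mrps36 (-1.74) and Mrpl2 (-1.30), with limma adjusted p between 0.00338 and 0.0116. Mrpl28, Mrpl55, Mrpl52, Mrps11, Mrpl12 and Mrpl2 also fell in the right ventricle. Leaving out single libraries gave counts of 2 to 18, the extremes being 2 without LV sham library 1 or LV banded library PS_9552 and 18 without LV sham library 4, and Mrps21 and Mrpl11 kept their call in all 16 omissions. Both lost it with TPM scaling and without the libraries listed at 0 for Rn45s, and Mrps21 also after quantile normalization and when corrected for length and GC content. Mrpl11 also lost it in a fit with same-numbered RV and LV libraries treated as pairs (the replicate block). The count was 4 with no filter on low values, 3 after quantile normalization, 2 with the replicate block, and 0 with TPM scaling or without the libraries listed at 0 for Rn45s.

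The ventricles were also compared within each operation group. In sham mice, 4 genes were higher in the right than in the left ventricle and none was lower, against 2.55% and 1.33% of all tested genes. They were Mrpl52 (log2 difference 1.23, limma adjusted p = 0.0179), Mrps26 (0.95, adjusted p = 0.0259), Mrpl55 (0.79, adjusted p = 0.0304) and Mrpl2 (0.83, adjusted p = 0.0323), each of which fell in the banded right ventricle; the 2 comparisons share the RV sham libraries. Mrps26 illustrates this, with 26.1, 36.6, 35.9 and 42.1 FPKM in RV sham and 10.9, 18.5, 22.0 and 20.8 FPKM in LV sham libraries, which did not overlap. For 11 of the 76 genes the RV sham libraries lay wholly above the LV sham libraries, against 6.4% of all tested genes. The median of the 76 genes was 0.30, beside -0.01 for all genes, and these directions were not stable to scaling: with TPM scaling the median was -0.25, beside -0.46 for all genes, and 6 genes were called lower and none higher, against 24.5% and 0.314% of all genes, although the 4 named kept a positive difference. Without LV sham library 1 or LV sham library 3 no gene was called, and 2 were called without RV sham library 3. With the replicate block, Mrps26 alone of the 4 kept its call.

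In banded mice the median lay on the side of the left ventricle, the opposite of sham mice as deposited, rescaled and after quantile normalization, but the same side as in sham mice with TPM scaling. Mrpl11 (difference -0.78, limma adjusted p = 0.0241) and Mrpl51 (-0.87, adjusted p = 0.0302) were lower in the right than in the left ventricle and no gene was higher, against 1.39% and 0.182% of all tested genes. The RV banded libraries lay wholly below the LV banded libraries for 27 of the 76 genes, against 8.16%. The median was -0.54, beside -0.10 for all genes, and -0.38 beside 0.02 rescaled, -0.42 beside -0.01 with TPM scaling and -0.29 beside 0.00 after quantile normalization. Neither call was firm: Mrpl51 lost it in all 8 omissions of a single banded library, and Mrpl11 in 7, all but that of RV library PS_9561. Both also lost it with the replicate block. The 2 genes called without RV library PS_9552 and the 1 called without LV library PS_9561 were other genes, and no gene was called in the remaining 5 omissions.

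By group means as deposited, 53 of the 76 genes were highest in LV banded, 22 in RV sham and 1 in RV banded mice. The last was Mrpl19, at 4.78 ± 1.46 FPKM beside 4.67 ± 0.83 in LV banded mice (SD, n = 4). The lowest mean was in LV sham mice for 38 genes, in RV banded mice for 24, in RV sham mice for 13 and in LV banded mice for 1, Mrps2. No gene was highest in LV sham mice. The same shares over all tested genes, and the order after rescaling, are not given here. The median LV difference of all tested genes was itself 0.33 as deposited and 0.01 rescaled. Their median RV difference as deposited was 0.26, beside -0.23 for the 76 genes. Whether this order is particular to the mitoribosomal genes was not tested.

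The large and the small subunit differed little across the 4 groups. The median differences of the Mrpl and Mrps genes were -0.21 and -0.26 for banding in the right ventricle, 0.55 and 0.65 in the left, -0.83 and -0.79 for the difference between the effects, 0.31 and 0.29 for right against left in sham mice, and -0.47 and -0.64 in banded mice. The gap between the subunits was at most 0.16 in any of the 5 comparisons. With TPM scaling, the RV medians were 0.27 and 0.22, so that the sign turned in both subunits, and the sham medians were -0.24 and -0.25. The share of genes that fell in the right ventricle was 23.4% of Mrpl and 13.8% of Mrps genes, and this difference in share was not tested.

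Within a library, the summed FPKM of the Mrpl genes was about the same multiple of that of the Mrps genes throughout: the ratio was 2.13 ± 0.12 in RV sham, 2.18 ± 0.11 in RV banded, 2.10 ± 0.06 in LV sham and 2.06 ± 0.10 in LV banded libraries (SD, n = 4), with ranges that overlapped. The Mrpl sum was 2690 ± 247 FPKM in RV sham, 2147 ± 320 in RV banded, 1998 ± 283 in LV sham and 3046 ± 403 in LV banded libraries, and the Mrps sum was 1269 ± 174, 981 ± 110, 949 ± 133 and 1488 ± 239 FPKM in the same order. The median log2(FPKM + 1) of the Mrpl genes minus that of the Mrps genes was 0.21 ± 0.31 in RV sham, 0.33 ± 0.11 in RV banded, 0.34 ± 0.06 in LV sham and 0.13 ± 0.12 in LV banded libraries. The RV sham libraries varied most, from -0.11 in library 3 to 0.61 in library 2, and their range covers those of the other groups. Counting Mrps30 and Mrps18a with the large subunit and leaving out Mrps36 gave 0.13, 0.29, 0.30 and 0.12.

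**Figure D4:**
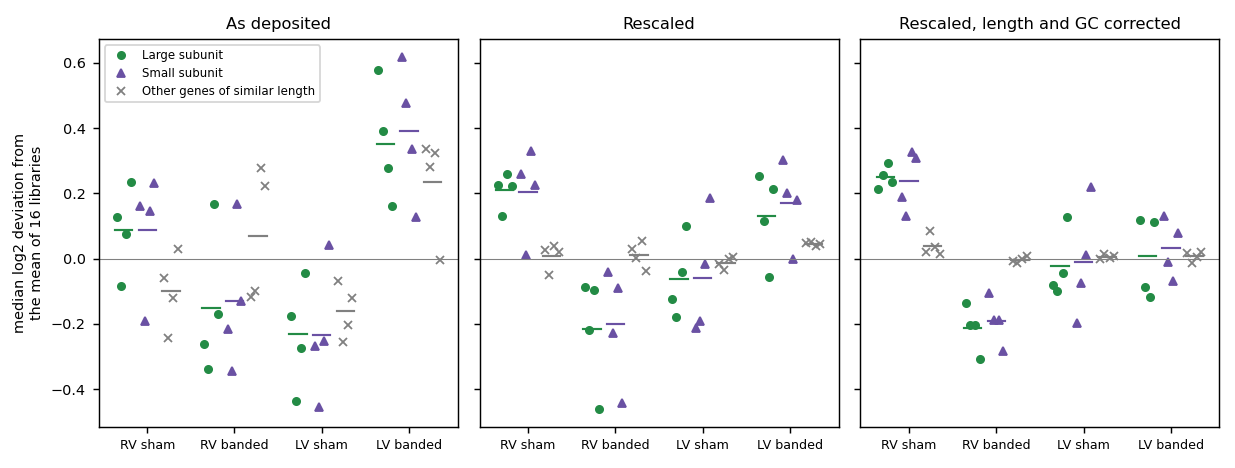
Median log2 deviation from the mean of the 16 libraries for the Mrpl genes (green circles), the Mrps genes (purple triangles) and other tested genes of similar transcript length (grey crosses), 1 point per library with the group mean as a line, as deposited, rescaled, and rescaled with the length and GC correction. The subunits lie close together in each library group; in the right panel the Mrpl medians lie at 0.21 to 0.29 in RV sham and at -0.31 to -0.14 in RV banded libraries.

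Per library, the direction in the right ventricle was seen most clearly after rescaling. The median deviation of the 76 genes from their mean over 16 libraries was 0.04 to 0.27 in RV sham and -0.46 to -0.07 in RV banded libraries rescaled, and 0.20 to 0.29 against -0.31 to -0.12 corrected for length and GC content. In both, all RV banded libraries lay below all RV sham libraries. As deposited the ranges overlapped, at -0.16 to 0.23 and -0.34 to 0.17. In the left ventricle, the corrected medians were -0.12 to 0.15 in sham and -0.08 to 0.12 in banded libraries and overlapped.

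**Figure D5:**
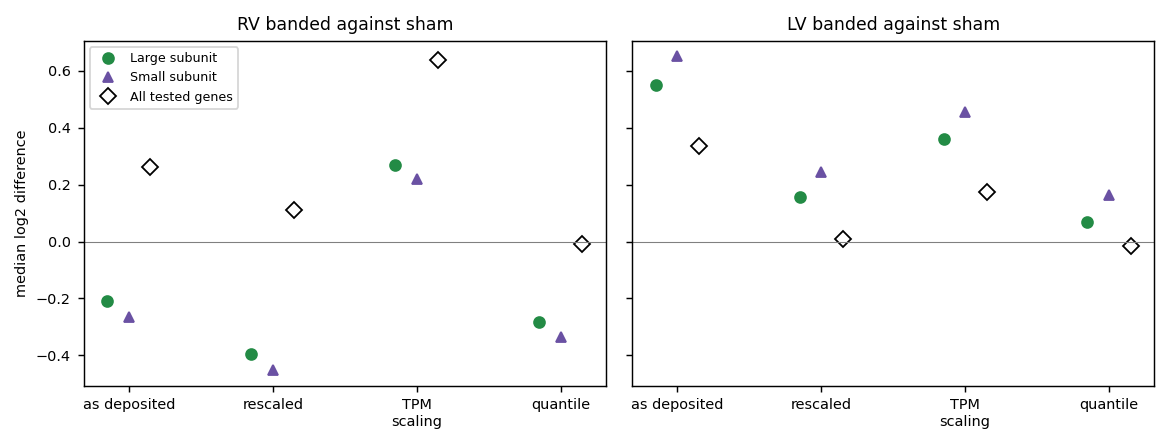
Median log2 difference between banded and sham libraries of the Mrpl genes, the Mrps genes and all 12100 tested genes under 4 scalings, in the right and the left ventricle. In the right ventricle both subunits lie below all genes under each scaling, while their own sign is negative under 3 and positive (0.27 and 0.22) with TPM scaling.

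Genes with a bacterial counterpart and genes specific to mitochondria did not separate. In the right ventricle 8 of 44 of the first (18.2%) and 7 of 31 of the second (22.6%) fell, with medians of -0.21 and -0.27, and in the left the medians were 0.55 and 0.60. Transcript length went with the RV differences. Across the 76 genes the RV difference correlated with the length of the transcript (Pearson r = 0.40, Spearman rho = 0.39) and inversely with the mean level (r = -0.48, rho = -0.47), and the LV difference with neither (r = -0.03 and -0.03). These describe genes measured in the same 16 libraries, and length and level were themselves related (r = -0.57). Of the 38 genes with shorter transcripts 9 fell, with a median of -0.33, and of the 38 with longer ones 6, with a median of -0.03; corrected for length and GC content, these medians were -0.45 and -0.39. Among the 8014 other tested genes of similar length, 5.76% fell and the median was 0.20.

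Genes that serve the mitoribosome were examined beside its proteins, in the banded right ventricle, where 4.93% of all tested genes fell and 10.5% rose. Of 6 further proteins of the mitoribosome, Chchd1, a small-subunit protein, fell in the banded right ventricle (log2 difference -0.94, limma adjusted p = 0.00827), with a median of -0.36 for the 6. Of 15 translation factors none passed (median 0.09), and Tufm, the elongation factor that brings transfer RNA to the ribosome, differed by -0.10 (limma adjusted p = 0.829), a sign that turned with TPM scaling (0.37). Of 17 mitochondrial aminoacyl-tRNA synthetases, Mars2 rose (1.08, limma adjusted p = 0.0343) and Ears2 fell (-0.72, adjusted p = 0.0128). Of 25 assembly factors, Tfb1m, which methylates the small ribosomal RNA, rose (1.17, limma adjusted p = 0.0357) and Mpv17l2, which is needed to build the ribosome, fell (-1.08, adjusted p = 0.00923).

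Among 10 genes of mitochondrial DNA replication and transcription, Polrmt, the mitochondrial RNA polymerase, fell. Its RV sham libraries held 15.3, 13.6, 13.6 and 16.5 FPKM and its RV banded libraries 5.01, 8.44, 8.07 and 10.6 FPKM, with no overlap (log2 difference -0.84, limma adjusted p = 0.0136). Tfam, which packages and helps transcribe mitochondrial DNA, differed by -0.09 (adjusted p = 0.780), and by 0.32 with TPM scaling. Of 12 genes of mitochondrial RNA processing, Fastk fell (-0.88, limma adjusted p = 0.00168). The medians of these lists were -0.11 and 0.30. Of 14 genes of general mitochondrial content, such as chaperones, porins and import subunits, Tomm40 (-0.66) and Phb (-0.80) fell, and the median was -0.12; their summed level was 1343 to 1646 FPKM in RV sham and 1215 to 1606 in RV banded libraries, which overlapped. All the genes named as fallen kept a negative difference, and those named as risen a positive one, under all 4 scalings. Corrected for length and GC content, Mars2 (limma adjusted p = 0.324) and Tfb1m (adjusted p = 0.0772) did not pass. Both rest on few fragments, since Tfb1m was listed at 0 in RV sham libraries 2 and 3 and Mars2 in RV sham library 2.

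The nuclear regulators of mitochondrial genes gave both directions. Esrra, the estrogen-related receptor alpha, held 106, 83.7, 81.0 and 92.5 FPKM in RV sham and 42.1, 59.7, 46.0 and 56.0 FPKM in RV banded libraries, with no overlap (log2 difference -0.83, limma adjusted p = 0.00230). Nrf1, nuclear respiratory factor 1, was low in all groups and rose from 2.30, 2.15, 2.71 and 4.31 FPKM to 3.94, 4.57, 5.44 and 9.53 FPKM, with overlap (0.80, limma adjusted p = 0.0437). Gabpa (0.51, adjusted p = 0.134) and Yy1 (0.72, adjusted p = 0.176) did not pass. Of the 11 regulators listed, these were the only calls, and the median was 0.39.

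The cytosolic ribosomal proteins, which build the other ribosome of the cell, served as a comparison group. Of 62 tested, 9 fell and 1 rose in the banded right ventricle, against 4.93% and 10.5% of all tested genes. The RV median was -0.05 and became 0.32 with TPM scaling. In the left ventricle 20 rose, against 2.44% of all tested genes, with a median of 1.22. For the difference between the effects of banding 26 of the 62 passed, all lower in the right, against 3.45%, with a median of -1.30. Relative to all tested genes the RV median was -0.31 for the cytosolic and -0.49 for the mitochondrial ribosomal proteins as deposited, and -0.27 and -0.30 after quantile normalization. The difference between these families was not tested.

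Markers of cell types moved with the operation as well. In the banded right ventricle, where 4.93% of all tested genes fell and 10.5% rose, 3 of 10 cardiomyocyte markers fell, Tnni3, Myl2 and Myl3. After quantile normalization the differences of Myl2 and Myl3 were 0.04 and 0.13. Of the 10 markers 6 had a negative difference, while Actn2, Ryr2, Pln and Actc1 had higher means in banded libraries. The summed level of the 10 was lower in every banded than in every sham library. Myl2, 1 of its largest terms, went from a mean of 9743 to 5394 FPKM. Of 7 fibroblast markers 2 rose, Col1a1 and Col1a2, and the summed level went from 240 to 311 FPKM in sham to 366 to 572 FPKM in banded libraries. Pecam1 of 6 endothelial and Rgs5 and Cspg4 of 5 mural markers rose, and none of 7 macrophage markers passed. All 4 tested pancreatic markers (Ins1, Ins2, Gcg and Iapp), 1 of 4 atrial markers (Kcnj3) and 1 of 3 blood markers (Hba-a2) fell. In pieces of tissue, fewer cells of a type and less RNA per cell cannot be told apart, and the part of these shifts in the values of the mitoribosomal genes was not tested.

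Promoters were examined because 15 of the genes fell in the right ventricle and because binding sites of nuclear respiratory factor 1 (NRF1), of ETS factors such as GABPA, and of YY1 are known in promoters of mitochondrial genes. RefSeq promoters (assembly GRCm38.p6, 250 bases before to 50 after the start) were matched to 68 of the 77 genes; Mrpl4, Mrpl13, Mrpl15, Mrpl19, Mrpl38, Mrpl54, Mrps28, Mrps34 and Mrps35 were not matched. The 250 bases before the start are shown for 4 genes, all taken from the called genes with a motif match in these bases. Mrpl12 and Mrpl52 are shown as genes that fell in the right ventricle. Mrps21 had the smallest p for the difference between ventricles, and Mrpl51 was called in the left ventricle. Mrpl2, Mrpl28 and Mrpl55 also fell, and their promoters held no match. They run 5′ to 3′ along the gene, with matches to a searched motif on either strand in capitals.
Mrpl12, chr11:120484387-120484636, plus strand: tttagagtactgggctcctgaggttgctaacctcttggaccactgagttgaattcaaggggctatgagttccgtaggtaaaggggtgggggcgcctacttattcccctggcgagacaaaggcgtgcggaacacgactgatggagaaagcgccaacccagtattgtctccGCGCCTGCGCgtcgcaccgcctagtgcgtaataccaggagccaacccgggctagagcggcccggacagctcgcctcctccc
Mrpl52, chr14:54426659-54426908, plus strand: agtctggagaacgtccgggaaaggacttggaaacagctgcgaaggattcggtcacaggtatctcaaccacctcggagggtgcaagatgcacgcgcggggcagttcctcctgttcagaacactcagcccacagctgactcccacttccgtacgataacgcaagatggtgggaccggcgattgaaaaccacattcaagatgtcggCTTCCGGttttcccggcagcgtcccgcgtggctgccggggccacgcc
Mrps21, chr3:95871515-95871764, minus strand: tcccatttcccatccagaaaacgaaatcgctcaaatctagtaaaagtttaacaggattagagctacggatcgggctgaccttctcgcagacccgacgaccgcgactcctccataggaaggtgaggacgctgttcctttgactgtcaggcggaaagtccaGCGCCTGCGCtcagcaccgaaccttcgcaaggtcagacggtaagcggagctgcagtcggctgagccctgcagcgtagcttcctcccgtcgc
Mrpl51, chr6:125191950-125192199, plus strand: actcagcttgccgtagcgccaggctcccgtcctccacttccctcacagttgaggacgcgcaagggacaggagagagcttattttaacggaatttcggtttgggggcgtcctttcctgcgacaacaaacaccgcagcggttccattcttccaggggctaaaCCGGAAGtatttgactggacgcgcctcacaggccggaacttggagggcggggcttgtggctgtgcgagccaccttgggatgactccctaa
The capitals mark the NRF1 letters in Mrpl12 and Mrps21 and the ETS letters in Mrpl52 and Mrpl51.

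The letters searched, on both strands, were GCGCA, any base and GCGC in a row for NRF1, CCGGAAG for ETS factors, AAGATGGCG for YY1 and TCAAGGTCA for estrogen-related receptors, and none of these contains another. NRF1 letters were present in 13 of the 68 promoters (19.1%), beside 5.19% of 27025 genes with a promoter in the table and 11.5% of the tested genes among them. ETS letters were present in 25 (36.8%, beside 9.93% and 19.7%), YY1 letters in 8 (11.8%, beside 1.64% and 3.63%), and estrogen-related receptor letters in none (beside 0.466% and 0.343%). Of the 11 genes with a promoter that fell in the right ventricle 8 held at least 1 of the first 3 motifs, and of the other 57 genes 32 did. Those 8 were Mrpl12 and Mrpl14 with NRF1 letters, Mrps26 with NRF1 and ETS letters, Mrpl43 and Mrpl52 with ETS letters and Mrpl36, Mrpl37 and Mrps11 with YY1 letters. By motif, NRF1 letters were in 3 of the 11 and 10 of the 57, ETS letters in 3 and 22, and YY1 letters in 3 and 5. The share of all tested genes with any of these motifs is not given here, and the differences were not tested. Mrps28, Mrpl4, Mrpl38 and Mrps34 fell too but had no matched promoter. A match is a run of letters and does not show that a factor binds there.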

How the data were processed

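PolyA RNA from 16 ventricular samples was sequenced, and the deposited values used are FPKM per gene and library. Per the submitters' processing notes, the tools named were FastQC 0.11.5, STAR 2.5.3a, Cufflinks 2.2.1, Cuffdiff and R 3.3.1, with genome build mm9, and no role is given for each. The authors' group means were not used.

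From these FPKM, limma 3.58.1 in R 4.3.3, with a trended prior, was fitted on log2(FPKM + 1) to 4 group means over the genes that reached 1 FPKM in 4 or more libraries. It was run as deposited and after division by scale factors (median, over 8211 genes, of the ratio to the genes' geometric means). A call needed a Benjamini-Hochberg adjusted p below 0.05, over all tested genes, in the same direction in both. Depth was estimated from the FPKM steps and GENCODE M21 lengths, which are not the authors' annotation, so it is approximate. Read counts were not used. The statistics were tested on simulated data, drawn independently around the mean of each gene. The simulated libraries had no differences in depth, scale or composition, so the test does not show how these affect the calls.

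Genes named in the text were all those called in the right ventricle, up to 6 called per direction elsewhere, the 4 highest and 3 lowest per subunit, the 4 largest and smallest RV differences, and chosen genes of known role or disease. From each accompanying list, up to 2 called genes per direction and chosen regulators were named. The genes and lists were chosen with earlier results of these data known. Alternatives covered the pseudocount, the low-value filter, scaling, a correction for length and GC content, a fit on the compared libraries only, a replicate block, and leaving out libraries; one, division by the scale factors alone for the gap between subunits, was added after the data were seen.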

Additional observations from a re-analysis of the deposited data

Results flagged for a closer look

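Dixon's test was applied to 176 groups of 4 FPKM values (critical value 0.829), and chance alone marks about 1 group in 20. It marked 14 values. RV sham library 2 stood apart for Mrpl42 (232.5 FPKM), Mrpl43 (63.89), Mrpl55 (114.3) and Mrps16 (87.68), RV sham library 3 for Mrpl23 (3.716) and Mrps18b (23.13), and RV sham library 1 for Mrps33 (11.34). LV sham library 3 stood apart for Mrpl23 (0.7323 FPKM) and LV sham library 4 for Mrps18c (43.77) and Mrps34 (44.04). LV banded library PS_9552 stood apart for Mrpl37 (65.96 FPKM), Mrps11 (36.82) and Mrps22 (12.76), and LV banded library PS_9553 for Mrps18c (74.38).

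The effect of banding differed between the ventricles, by limma's interaction contrast, for 10 of the 76 genes. All had a lower RV than LV effect on the log2 scale, against 3.45% of all tested genes in that direction. The count was 0 with TPM scaling and ran from 2 to 18 when single libraries were left out. The RV effect minus the LV effect was -1.889 for Mrpl52, -1.737 for Mrps36, -1.565 for Mrps11, -1.381 for Mrpl55, -1.301 for Mrpl2, -1.293 for Mrpl12, -1.279 for Mrps21, -1.232 for Mrpl28, -1.232 for Mrpl54 and -1.212 for Mrpl11.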

How the results depend on the processing

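Counts of called genes depended on the processing, over the whole table as well. In the right ventricle 4.93% of all tested genes fell, 1101 of 12100 were lower rescaled only and 9.1% corrected. With TPM scaling 46.9% were higher. In the left ventricle 2.44% rose, and 14.3% were higher as deposited. Between ventricles in sham mice 1.33% were lower, and 24.5% with TPM scaling. Such shares are not given here for every setting. The counts that follow are of the mitoribosomal genes. For banding in the right ventricle (15 lower) the count was 24 rescaled only, 23 corrected for length and GC content, 4 on the compared libraries only, 3 without the libraries listed at 0 for Rn45s, and 10, all higher, with TPM scaling; single omissions gave 8 to 16. In the left ventricle (1 higher) it was 22 as deposited only, 4 with a filter at 5 FPKM, 3 on the compared libraries only, and 0 with no filter, TPM scaling, quantile normalization, the correction or without the Rn45s libraries; omissions gave 0 to 5, with 5 without LV sham library 4 and 0 without any other. For the difference between effects (10 lower) it was 4 with no filter, 17 at 5 FPKM, 22 as deposited only, 3 after quantile normalization, and 0 with TPM scaling or without the Rn45s libraries; omissions gave 2 to 18. Omission of RV banded PS_9553, PS_9561 or PS_9564 gave 6, 5 or 4, of LV sham 1, 2, 3 or 4 gave 2, 3, 5 or 18, and of LV banded PS_9552, PS_9553 or PS_9564 gave 2, 6 or 4.

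Between ventricles in sham mice (4 higher) it was 7 at 5 FPKM, of which 1 was lower, 7 as deposited only, 6, all lower, with TPM scaling, 1 without the Rn45s libraries and 0 on the compared libraries only; omissions gave 0 to 4. In banded mice (2 lower) it was 4 at 5 FPKM, 7 as deposited only, 1 after quantile normalization or the correction, and 0 with TPM scaling or without the Rn45s libraries; omissions gave 0 to 2. The gap between subunit medians stayed within 1 SD in every group and setting run. Of the settings run for named genes, 767 kept the call or its absence, 225 lost it, 18 gained it and in 0 did a call turn direction. Differences of genes that were not called could change sign between settings. In the right ventricle that of Mrpl3 ran from -0.29 to 0.74 and that of Mrps14 from -1.03 to 0.09. The cause was not tested.

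Same-numbered RV and LV libraries deviated little together (correlations -0.0911 to 0.151, and only banded library PS_9552 in the right ventricle passed 0.1). Such values cannot show whether a number marks a single mouse. The labels do not say so either, and the main fits leave the numbers out. With the replicate block, the counts were 15 for the right ventricle, 1 for the left, 2 for the difference between effects, 1 between ventricles in sham mice and 0 in banded mice. Depth limits the RV sham values most.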
